A study of Mus musculus with 9 samples.

Results

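The genes followed here are 8 podocyte genes of the mouse: Nphs1, Magi2, Podxl, Ptpro, Synpo, Wt1, Tcf21 and Cdkn1c. They were taken by name, after the Ensembl gene IDs of the deposited files had been matched to mouse symbols, and they are 8 of the 55385 IDs; each name matched 1 ID. RNA of whole kidneys from C57BL/6 mice was sequenced in bulk at day 7 (Cis7d, n = 3) and at day 3 (Cis3d, n = 3) after 1 intraperitoneal dose of cisplatin at 20 mg/kg, and in sham animals that received an equal volume of saline (n = 3). The series describes the groups as phases of acute kidney injury; the sex and age of the mice and the day of the sham collection are not given in the labels. Cisplatin is a DNA-damaging chemotherapy drug toxic to tubule cells. The deposited values are FPKM, fragments counted for a gene per kilobase of its transcript and relative to the mapped total of that library, rounded by the authors to 2 decimals.

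Podocytes are the epithelial cells that wrap the glomerular capillaries with interlocking foot processes. Adjacent foot processes are joined by the slit diaphragm, a cell junction built around nephrin, the product of Nphs1, and anchored to actin. Podocytes leave the cell cycle as they mature, and they are a small share of the cells of a kidney, so their transcripts are diluted in RNA of the whole organ. In bulk RNA, fewer cells of a type and less RNA per cell cannot be told apart, and this holds for every value below. Several of the 8 genes are also used elsewhere: as background, Podxl is made by endothelium, Tcf21 and Cdkn1c by stromal cells, and Synpo by other cells with dense actin.

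Promoter sequence from RefSeq (GRCm38.p6) was held for 4 of the 8 genes. It is shown for Tcf21, Ptpro and Magi2, each of which had its lowest group mean at day 3 and a higher one at day 7. Of these, Tcf21 alone passed the test at day 3 against sham given below. Ptpro did not pass, and Magi2 was too low to be tested. The stretches lie in the 250 bases before the annotated start, trimmed where an annotated exon overlaps them, and read 5′ to 3′ in the direction of the gene. Capitals mark the E-box, CANNTG, the core recognised by basic helix-loop-helix proteins, the family of TCF21 itself; it reads the same on both strands. The stretches are chr10:22820175-22820393 on the minus strand for Tcf21, chr6:137252049-137252298 on the plus strand for Ptpro and chr5:19226796-19227035 on the plus strand for the first of the annotated Magi2 starts.
Tcf21: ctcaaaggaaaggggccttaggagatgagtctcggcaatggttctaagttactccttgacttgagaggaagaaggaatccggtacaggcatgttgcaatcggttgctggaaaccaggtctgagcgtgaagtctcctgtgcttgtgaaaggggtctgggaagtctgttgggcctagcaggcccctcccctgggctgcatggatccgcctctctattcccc
Ptpro: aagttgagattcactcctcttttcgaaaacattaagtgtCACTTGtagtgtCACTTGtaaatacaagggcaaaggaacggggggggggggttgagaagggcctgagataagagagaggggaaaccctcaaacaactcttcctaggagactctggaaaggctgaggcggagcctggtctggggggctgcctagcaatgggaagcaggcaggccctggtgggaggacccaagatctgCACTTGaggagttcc
Magi2: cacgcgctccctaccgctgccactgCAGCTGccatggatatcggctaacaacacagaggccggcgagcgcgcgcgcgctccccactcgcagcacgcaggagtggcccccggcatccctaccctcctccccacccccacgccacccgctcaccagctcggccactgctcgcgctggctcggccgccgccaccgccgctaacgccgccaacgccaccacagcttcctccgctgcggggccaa
The window of Ptpro held 3 E-boxes, that of Magi2 held 1, and these letters were not in those of Tcf21 and Nphs1. The Nphs1 window is not shown because the trimming at annotated exons left no bases of it. Of 32841 mouse windows of 250 bases, 66.2% held at least 1 E-box and 12.2% held 3 or more. Elements bound by the zinc fingers of WT1 and its EGR relatives were also searched on both strands, as GTGGGAG, present in 8.25% of windows, and as GCGGGGGCG, present in 2.57%. The Ptpro window had 1 GTGGGAG, and neither string was in the other windows. A match is a run of letters and was not tested as a binding site.

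The number of genes at 1 FPKM or more was 12090 to 12839 at day 7, 12934 to 13183 at day 3 and 11647 to 12327 in sham kidneys. Every day 3 library thus stood above all others. Correlations across genes within a group ran between 0.942 and 0.980. Mitochondrial transcripts held 31.7 to 32.6% of the FPKM at day 7, 27.1 to 31.8% at day 3 and 25.6 to 27.3% in sham kidneys, and their part in the results was not tested. Library 1 of day 3 stood lowest in several podocyte genes: the median difference of the 8 genes from the sham mean was −0.63 on the log2(FPKM + 1) scale there, against −0.11 and −0.20 in the other day 3 libraries. Kap, a kidney androgen-regulated gene of the proximal tubule, was also lowest there, at 2396 FPKM against 12502 and 16457 FPKM in the other day 3 libraries, while the other 9 proximal tubule markers summed to 91.3 FPKM against 120.01 and 162 FPKM. The same median difference was −0.35, −0.10 and −0.23 at day 7 and 0.16, −0.01 and −0.15 in sham kidneys, where 1 of the 8 genes lay below the sham mean in library 1 and 7 of the 8 in library 3.

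FPKM is scaled by length, so levels can be set side by side between genes. In sham kidneys Podxl stood far above the others at 52.1 ± 5.83 FPKM (SD, n = 3 here and for the following means). Cdkn1c followed at 11.1 ± 2.33 FPKM. Nphs1 at 5.83 ± 0.330, Synpo at 5.46 ± 2.68 and Tcf21 at 4.997 ± 0.713 FPKM followed, and the wide spread of Synpo covered the means of both of its neighbours in that order. Ptpro had 3.26 ± 0.439 FPKM, Wt1 1.13 ± 0.265 FPKM and Magi2 0.427 ± 0.312 FPKM. At day 7 Synpo stood below Ptpro, with 2.20 ± 0.215 FPKM against 3.63 ± 1.33 FPKM, and at day 3 it stood above Nphs1, with 7.26 ± 1.24 FPKM against 4.16 ± 1.25 FPKM. Podxl and Cdkn1c kept ranks 1 and 2 in each group mean.

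**Figure D1:**
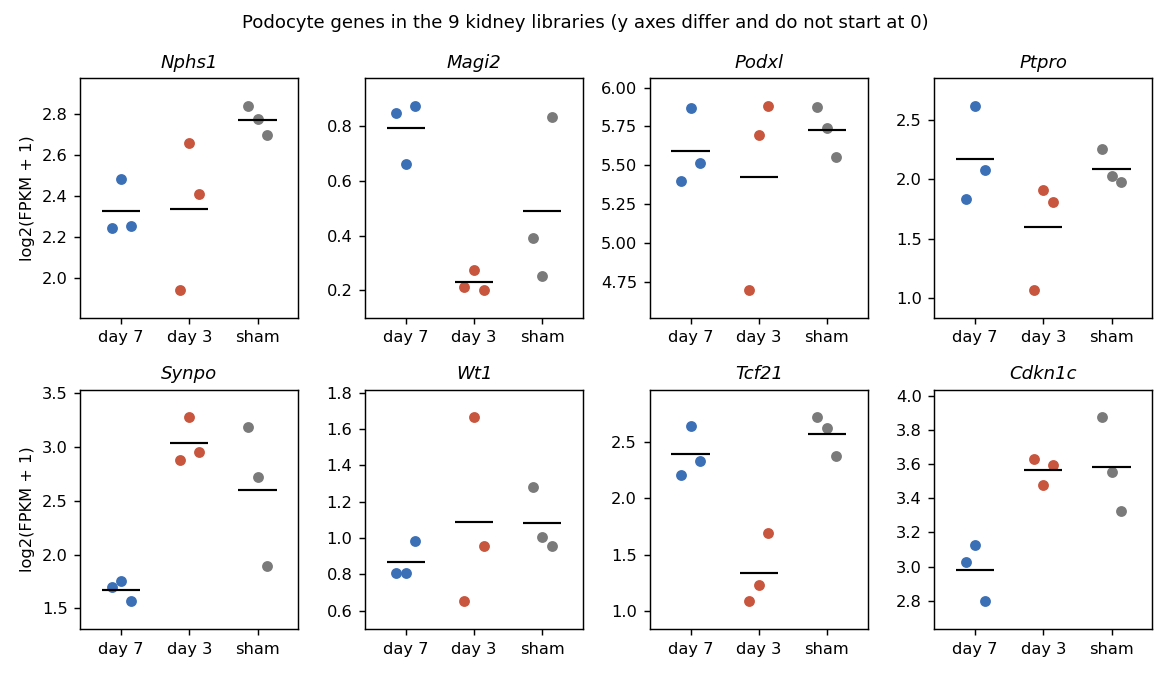
Log2(FPKM + 1) of the 8 podocyte genes in each of the 9 kidney libraries (points) with the mean of each group (lines), on y axes that differ between genes and do not start at 0; groups run from day 7 through day 3 to sham. Tcf21 sits at 1.12 to 2.23 FPKM in the day 3 libraries, below all 6 others, and Synpo at 1.96 to 2.38 FPKM in the day 7 libraries, below all 6 others.

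The 8 genes did not move as 1 group. The 13718 genes that reached 1 FPKM in 3 or more libraries were tested with limma on log2(FPKM + 1). A gene is called here at a Benjamini-Hochberg adjusted p under 0.05 over all of them, and Magi2 was too low to be tested. At day 3 against sham, Tcf21 was lower and the other 6 tested members did not pass. Over all tested genes 59.9% were called in that comparison, 39.3% higher and 20.6% lower. At day 7 against sham, Synpo and Cdkn1c were lower, 2 of 7, where 29.7% of all tested genes were called, 19.3% higher and 10.4% lower. Between day 7 and day 3, Tcf21 was higher and Synpo and Cdkn1c were lower, 3 of 7, where 55.4% of all tested genes were called, 21.7% higher and 33.7% lower. At day 3 and between day 7 and day 3 the counts of lower calls lie near these shares. At day 7 the 2 lower calls of 7 stand against 10.4% and rest on calls that single libraries end, as given below. Higher calls were 0 of 7 at day 3 and 0 of 7 at day 7 against sham, beside shares of 39.3% and 19.3%. The median log2 fold change of the 7 tested members was −0.30 at day 3, −0.21 at day 7 and −0.01 between day 7 and day 3, against medians over all tested genes of 0.25, 0.06 and −0.16. The comparisons with sham share the sham libraries, and the day 7 against day 3 comparison shares libraries with both.

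**Figure D2:**
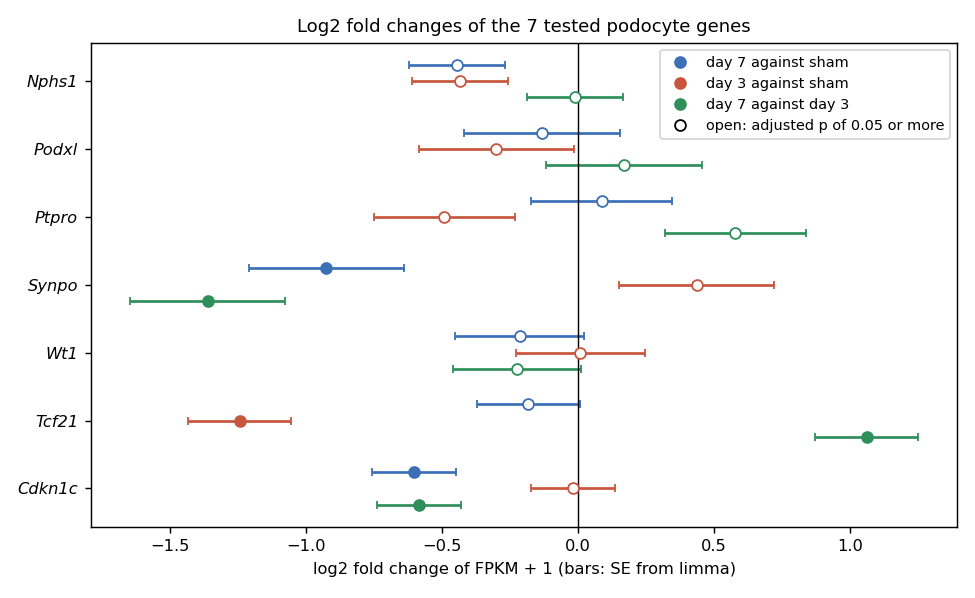
Log2 fold change (on the log2(FPKM + 1) scale) of the 7 tested podocyte genes in each comparison, with bars for the standard error from limma; filled points passed an adjusted p under 0.05 and open points did not. Tcf21 is the member called at day 3 against sham, at −1.24, and Synpo and Cdkn1c are the members called at day 7 against sham, at −0.93 and −0.60.

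The slit diaphragm was represented by Nphs1 and Magi2. Nphs1 (chromosome 7, 30458315 to 30487223, plus strand, GRCm38 here and below) encodes nephrin, whose extracellular domains bridge the slit. It had 3.74, 4.58 and 3.76 FPKM at day 7, 2.84, 5.32 and 4.31 FPKM at day 3, and 6.15, 5.85 and 5.49 FPKM in sham kidneys. Both cisplatin groups lay wholly below sham and overlapped each other. The change was −0.45 ± 0.18 (log2 fold change ± SE here and below, limma adjusted p = 0.0903) at day 7 and −0.43 ± 0.18 (limma adjusted p = 0.0610) at day 3, and neither passed. Between day 7 and day 3 it was −0.01 (limma adjusted p = 0.963). The outcome against sham turned on the scaling: with median-of-ratios size factors, Nphs1 passed at day 7 (−0.56, limma adjusted p = 0.0349) and at day 3 (−0.70, limma adjusted p = 0.00713). Nphs1 also passed at day 3 without library 2 of that group (−0.60, limma adjusted p = 0.0183) and at day 7 without library 1 of day 3, which changes the shared spread (limma adjusted p = 0.0221). With library 1 of day 3 left out its day 3 value was −0.24.

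Magi2 (chromosome 5, 19227036 to 20704792, plus strand) encodes a scaffold with PDZ domains that sits beneath the slit diaphragm and binds nephrin. It had 0.80, 0.58 and 0.83 FPKM at day 7, 0.16, 0.21 and 0.15 FPKM at day 3, and 0.31, 0.19 and 0.78 FPKM in sham kidneys. The day 7 and day 3 libraries did not overlap, while sham kidneys spanned most of the range of both. At such levels the log2(FPKM + 1) scale compresses differences: the day 7 and day 3 means differed by 0.56 on that scale, day 7 and sham by 0.30, and day 3 and sham by −0.26. With no filter on low values, limma gave Magi2 an adjusted p of 0.0217 between day 7 and day 3, of 0.297 at day 7 against sham and of 0.230 at day 3 against sham.

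With the FPKM as deposited, neither of the surface genes Podxl and Ptpro was called in any comparison. Podxl (chromosome 6, 31519488 to 31563981, minus strand) encodes podocalyxin, the sialomucin whose negative charge keeps foot processes apart. It had 41.11, 57.42 and 44.70 FPKM at day 7, 24.96, 50.77 and 57.93 FPKM at day 3, and 57.67, 52.49 and 46.04 FPKM in sham kidneys. Library 1 of day 3 is the low one and the groups otherwise overlapped; the change was −0.13 ± 0.29 (limma adjusted p = 0.764) at day 7 and −0.30 ± 0.29 (limma adjusted p = 0.390) at day 3. Without library 1, the day 3 value of Podxl was 0.06.

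Ptpro (chromosome 6, 137252319 to 137463233, plus strand) encodes GLEPP1, a receptor tyrosine phosphatase of the foot process membrane. It had 2.56, 5.12 and 3.21 FPKM at day 7, 1.10, 2.75 and 2.50 FPKM at day 3, and 3.76, 3.08 and 2.94 FPKM in sham kidneys. All day 3 libraries lay below all sham libraries, and day 7 overlapped both. Ptpro changed by 0.09 ± 0.26 (limma adjusted p = 0.829) at day 7 against sham, by −0.49 ± 0.26 (limma adjusted p = 0.132) at day 3 against sham, and by 0.58 ± 0.26 (limma adjusted p = 0.0881) between day 7 and day 3. With median-of-ratios size factors the day 3 value was −0.71 (limma adjusted p = 0.0279) and the day 7 against day 3 value 0.69 (limma adjusted p = 0.0337), and the day 7 value against sham was −0.02.

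Synpo (chromosome 18, 60593973 to 60660142, minus strand) encodes synaptopodin, an actin-associated protein of the foot process. It had 2.25, 2.38 and 1.96 FPKM at day 7, 6.37, 8.68 and 6.73 FPKM at day 3, and 8.07, 5.60 and 2.72 FPKM in sham kidneys. Day 7 was low in every library, day 3 was high, and the sham libraries were spread widely and overlapped day 3. Synpo fell by 1.36 ± 0.28 on the log2 scale between day 7 and day 3 (limma adjusted p = 0.00343), a difference that passed with each library left out in turn (adjusted p from 0.000354 to 0.0156). Against sham it was lower at day 7, at −0.93 ± 0.28 (limma adjusted p = 0.0388), and 0.44 ± 0.28 at day 3 (limma adjusted p = 0.213). The day 7 call against sham was lost when any 1 sham library other than library 3, any 1 day 7 library, or library 2 or 3 of day 3 was left out (limma adjusted p from 0.0503 to 0.111), and with the GC content and length trend removed it was −0.66 (limma adjusted p = 0.178). Without library 1 of sham the day 3 value of Synpo was 0.73 with a limma adjusted p of 0.0314.

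Wt1 and Tcf21 are the transcription factors among the 8. Wt1 (chromosome 2, 105126529 to 105173616, plus strand) encodes the zinc-finger protein that podocytes keep throughout life and that binds the control regions of many genes of the slit diaphragm. It had 0.75, 0.75 and 0.98 FPKM at day 7, 0.57, 2.17 and 0.94 FPKM at day 3, and 1.43, 1.01 and 0.94 FPKM in sham kidneys. Library 2 of day 3 was the high one and the groups overlapped. The change was −0.21 (limma adjusted p = 0.531) at day 7 and 0.01 ± 0.24 (limma adjusted p = 0.976) at day 3, where the sign depended on the scaling: −0.15 with median-of-ratios size factors. The antisense gene Wt1os was listed between 0.10 and 0.39 FPKM, and whether the authors' quantification used strand is not given in the sources used here.

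Tcf21 (chromosome 10, 22817281 to 22820174, minus strand) encodes a basic helix-loop-helix factor needed for glomerulus formation. It had 3.61, 5.27 and 4.03 FPKM at day 7, 1.12, 1.34 and 2.23 FPKM at day 3, and 5.60, 5.18 and 4.21 FPKM in sham kidneys. Every day 3 library lay below every other library, and the day 7 and sham libraries overlapped. Tcf21 was lower at day 3 against sham, at −1.24 ± 0.19 (limma adjusted p = 0.000557), and higher at day 7 against day 3, at 1.06 ± 0.19 (limma adjusted p = 0.00153). At day 7 against sham it was −0.18 ± 0.19 (limma adjusted p = 0.505). Both calls were made under each alternative run, and with 1 library left out the day 3 value ran between −1.42 and −1.12.

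Cdkn1c (chromosome 7, 143458339 to 143461050, minus strand) encodes p57, an inhibitor of cyclin-dependent kinases that marks podocytes after they stop dividing. It had 7.14, 7.72 and 5.95 FPKM at day 7, 11.37, 10.15 and 11.07 FPKM at day 3, and 13.65, 10.72 and 9.04 FPKM in sham kidneys. Day 7 lay below both other groups in every library, and the day 3 libraries fell inside the sham range. Cdkn1c was lower at day 7 against sham, at −0.60 ± 0.15 (limma adjusted p = 0.0203), and against day 3, at −0.58 ± 0.15 (limma adjusted p = 0.0112). At day 3 against sham it was −0.02 ± 0.15 (limma adjusted p = 0.933), and −0.32 with median-of-ratios size factors (limma adjusted p = 0.0424), and 0.25 with the GC content and length trend removed (limma adjusted p = 0.153). Removing the trend with GC content and length took its value at day 7 against sham to −0.087 (limma adjusted p = 0.748) and at day 7 against day 3 to −0.33 (limma adjusted p = 0.0659). The day 7 call against sham was also lost without library 2 of sham (limma adjusted p = 0.0556) and without library 1 or 3 of day 7 (limma adjusted p = 0.0525 and 0.0737). The longest annotated transcripts of Cdkn1c and Synpo are 59.4% and 58.2% G and C, the highest of the 8, and that of Tcf21, at 49.9%, is the lowest.

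Tested genes as a whole had a median change of 0.25 at day 3 on this scale, and 0.0050 with median-of-ratios size factors. Relative to 0.25, Tcf21 stood at −1.49, Ptpro at −0.74, Nphs1 at −0.69, Podxl at −0.55, Cdkn1c at −0.27, Wt1 at −0.24 and Synpo at 0.19 at day 3. At day 7, against a median of 0.06 over all genes, Synpo stood at −0.98, Cdkn1c at −0.66, Nphs1 at −0.50, Wt1 at −0.27, Tcf21 at −0.24, Podxl at −0.19 and Ptpro at 0.03. With those size factors 4 members were called lower at day 3 (Tcf21, Nphs1, Ptpro and Cdkn1c), in place of 1.

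**Figure D3:**
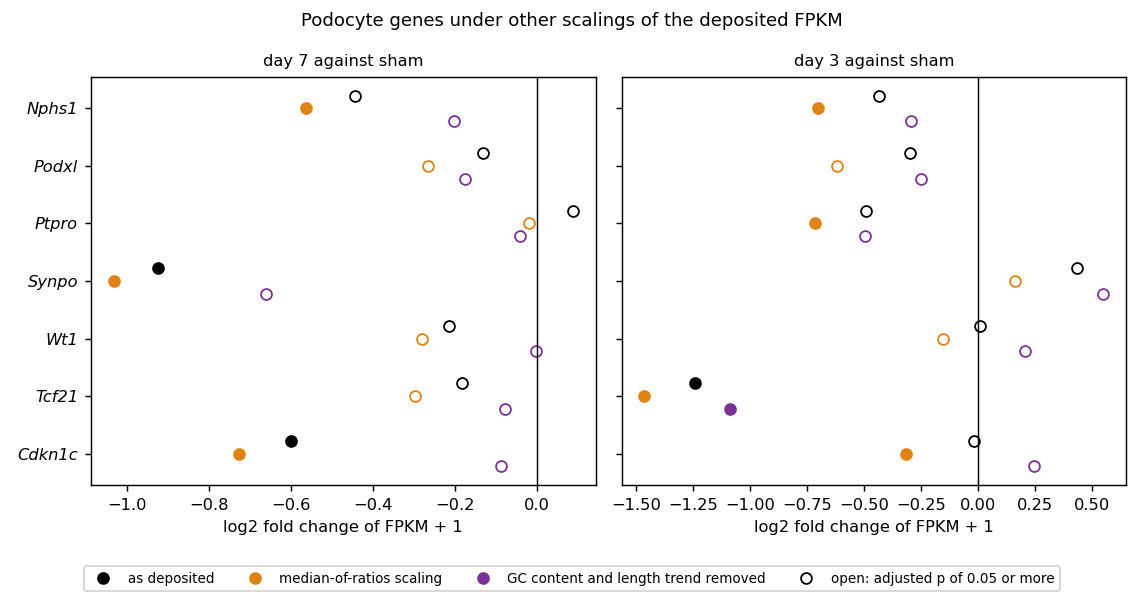
Log2 fold change of the 7 tested podocyte genes against sham at day 7 (left) and day 3 (right), with the FPKM as deposited, with median-of-ratios size factors and with the GC content and length trend removed; filled points passed an adjusted p under 0.05. Tcf21 is called at day 3 under each of the 3, and Nphs1 moves between −0.70 and −0.30 at day 3 and is called at −0.70.

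Within a library the members also shifted against each other. Relative to the median of the 8 members in the same library, Synpo stood at −0.32, −0.79 and −0.60 on the log2 scale at day 7, at 1.37, 0.99 and 0.84 at day 3, and at 0.40, 0.05 and −0.28 in sham kidneys. Tcf21 stood between 0.10 and 0.19 at day 7, between −1.06 and −0.42 at day 3 and between −0.06 and 0.20 in sham kidneys. Such ratios within a library show that the members moved unequally, and which of them did not change cannot be read from them. Over the 9 libraries the 28 pairs of members had Pearson correlations of log2(FPKM + 1) between −0.91 (Synpo with Magi2) and 0.90 (Synpo with Cdkn1c), with a median of 0.29 and 9 pairs below 0. Podxl and Ptpro stood at 0.84 and Magi2 with Cdkn1c at −0.82. These values include the differences between groups and the scaling that genes of 1 library share.

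The genes whose pattern over the 9 libraries was most like that of Nphs1 were Hs3st6 (Pearson r = 0.942 for log2(FPKM + 1)), a heparan sulfate sulfotransferase, Mfng (r = 0.928), a glycosyltransferase of the Notch pathway, Ppif (r = 0.927), the mitochondrial cyclophilin, Sema3g (r = 0.919), a secreted semaphorin, and Grap (r = 0.915), an adaptor protein. Sema3g averaged 13.1 ± 0.745 FPKM at day 7, 13.7 ± 4.48 FPKM at day 3 and 20.1 ± 1.94 FPKM in sham kidneys (SD, n = 3 each). Against the mean of the 8 scaled members the closest were Eln (r = 0.951), which encodes elastin, Grap (r = 0.944), Hs3st6 (r = 0.944), Hmgn2 (r = 0.921), a nucleosome-binding protein, and Mfng (r = 0.920). Each r is the top of a search over the tested genes and describes these libraries.

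Beyond the 8 members, 47 other podocyte genes were followed, of which 39 were tested. At day 7 against sham 9 were higher and 2 lower, at day 3 against sham 11 were higher and 9 lower, and between day 7 and day 3 10 were higher and 14 lower. Over all tested genes the shares were 19.3% higher and 10.4% lower at day 7, 39.3% and 20.6% at day 3, and 21.7% and 33.7% between day 7 and day 3. The medians of the 39 genes were −0.09, 0.19 and −0.46 in the same order of comparisons. The list holds 2 classes, by how widely the kidney uses a gene. Of 18 genes described as mainly podocyte within the nephron, 13 were tested: at day 3 against sham 8 were lower and 1 higher (median −0.70), at day 7 against sham 5 were higher and 1 lower (median 0.12), and between day 7 and day 3 7 were higher and 1 lower (median 0.71). Of 29 genes also widely used in other kidney cells, 26 were tested: at day 3 against sham 10 were higher and 1 lower (median 0.43), at day 7 against sham 4 were higher and 1 lower (median −0.14), and between day 7 and day 3 3 were higher and 13 lower (median −0.66). The classes come from general knowledge, with earlier results of these data known, and their difference was not tested. Whether podocytes supply most of the RNA of each gene in the mainly podocyte class was not tested either. With 1 library left out, the 6 calls of the mainly podocyte class at day 7 became 2 to 9 and the 5 of the broad class 3 to 5; with the GC content and length trend removed they became 1 and 0. Chosen after their values were seen, Nes, an intermediate filament gene, was the member of the mainly podocyte class that rose at day 3 (1.33), and Vegfa, the growth factor that podocytes and tubules supply to capillaries, was the broad gene that fell (−0.75).

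**Figure D4:**
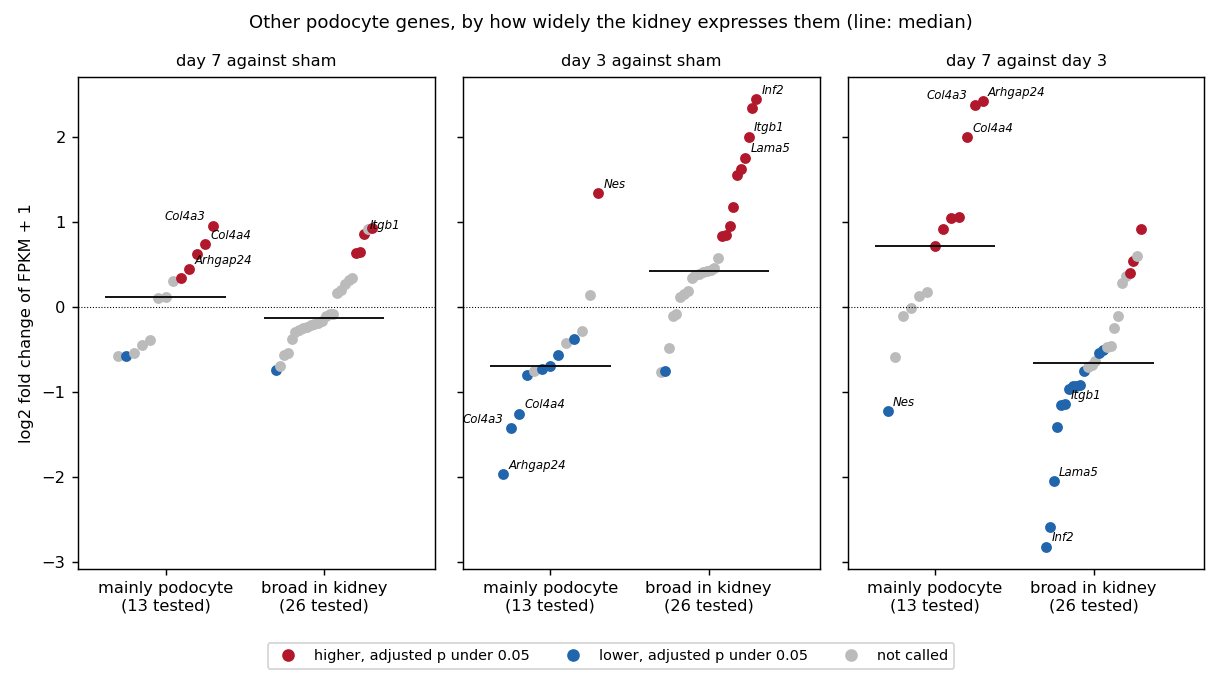
Log2 fold change of the tested other podocyte genes, split into those mainly of podocytes and those broad in the kidney, in each comparison, with the median of each class as a line; red and blue points passed an adjusted p under 0.05 as higher and lower, and grey points did not. At day 3 against sham the mainly podocyte class has its median at −0.70 and the broad class at 0.43. The classes were assigned from general knowledge with earlier results of these data known, and their difference was not tested.

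The collagen chains of the glomerular basement membrane moved in both directions. Col4a3 had 43.71, 40.21 and 36.25 FPKM at day 7, 8.44, 6.84 and 5.59 FPKM at day 3, and 23.10, 18.16 and 19.47 FPKM in sham kidneys. Its groups did not overlap: it was higher at day 7 against sham by 0.95 ± 0.16 (limma adjusted p = 0.00357) and lower at day 3, at −1.43 ± 0.16 (limma adjusted p = 9.64e-05). Col4a4, its partner chain, changed by 0.74 at day 7 and −1.26 at day 3, and Arhgap24, a GTPase activator that restrains Rac, by 0.45 and −1.97, each past the limma threshold. Col4a5, another chain of that membrane, did not fall at day 3. It stood at 0.57 against sham (limma adjusted p = 0.0817) and was not called. The day 7 rise of Arhgap24 against sham became −0.058 once the GC and length trend was removed. With 1 library left out, the limma adjusted p of the day 7 rises reached 0.144 for Arhgap24 and 0.0618 for Col4a4. In sham kidneys Col4a3, Col4a4 and Arhgap24 stood at 18.16 to 23.10, 18.21 to 19.72 and 16.67 to 22.72 FPKM, above the 5.49 to 6.15 FPKM of Nphs1. Podxl, another member, stood above all of them there, at 46.04 to 57.67 FPKM.

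Among genes of adhesion and actin that many kidney cells use, the largest rises at day 3 were those of Inf2, Itga3, Itgb1 and Lama5. Itgb1, the β1 integrin, had 64.31, 78.92 and 57.60 FPKM at day 7, 148.28, 136.65 and 160.92 FPKM at day 3, and 40.67, 33.52 and 35.04 FPKM in sham kidneys. It was higher than sham at day 7 by 0.85 ± 0.14 (limma adjusted p = 0.00374) and at day 3 by 2.00 ± 0.14 (limma adjusted p = 1.33e-05); the day 7 value was 0.51 with the GC and length trend removed (limma adjusted p = 0.0670). Inf2, a formin, rose by 2.44, Itga3, the α3 integrin that pairs with Itgb1 in podocytes, by 2.34 and Lama5, a laminin chain, by 1.76 at day 3 against sham, each past the limma threshold, and at day 7 they stood at −0.38, −0.25 and −0.29 with none called. Agrn, a basement membrane proteoglycan, fell by 1.42 between day 7 and day 3, and Npnt, the integrin ligand nephronectin, rose by 1.06 (limma adjusted p up to 0.0801 with 1 library left out). Col4a5 was higher at day 7 (0.93, limma adjusted p = 0.0259, and up to 0.0874 with 1 library left out), and Arhgdia, an inhibitor of small GTPases of the actin cytoskeleton, was lower at day 7 (−0.74, limma adjusted p = 0.00282) and lower at day 7 than at day 3 (−0.93). With the GC and length trend removed, the day 7 values against sham were −0.25 for Arhgdia (limma adjusted p = 0.169), 0.82 for Col4a5 (limma adjusted p = 0.10004) and 0.57 for Col4a4 (limma adjusted p = 0.106).

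Relatives of the members gave a contrast in family. Cdkn1a, which encodes p21 and is a target of p53, had 5.44, 9.11 and 3.00 FPKM at day 7, 262.56, 295.84 and 287.95 FPKM at day 3, and 12.21, 3.80 and 5.64 FPKM in sham kidneys. It rose by 5.24 ± 0.40 at day 3 against sham (limma adjusted p = 1.87e-05), where its relative Cdkn1c stood at −0.02. Cdkn1b, which encodes p27, stood at 0.17 at day 7 and 0.28 at day 3 and did not pass. Magi3 was higher at day 7 (0.78) and at day 3 (1.10), and Ptprj, another receptor tyrosine phosphatase, was higher at day 7 (1.22) and at day 3 (1.87); with 1 library left out, the limma adjusted p of the day 7 calls reached 0.0592 for Magi3 and 0.103 for Ptprj, and with the GC and length trend removed it was 0.187 for Magi3 and 0.166 for Ptprj. Magi1 was higher at day 7 than at day 3 by 0.84. Cd34, the sialomucin related to podocalyxin, stood at 0.15 at day 7 and 0.62 at day 3, and Ptprb at 0.38 and −0.15, with none called by limma.

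Of the genes beside Cdkn1c in the imprinted cluster on chromosome 7, the 3 tested were lower at day 3, where 20.6% of all tested genes were. Kcnq1ot1, the antisense RNA of the cluster, was too low to be tested. It had 0.07, 0.09 and 0.05 FPKM at day 7 and 0.11, 0.14 and 0.13 FPKM at day 3. In sham kidneys it had 0.04, 0.03 and 0.03 FPKM. Its day 7 and day 3 libraries all lay above those of sham, at levels near the rounding to 2 decimals. Slc22a18 had 109.38, 85.18 and 108.75 FPKM at day 7, 19.40, 18.76 and 17.31 FPKM at day 3, and 144.19, 226.94 and 221.08 FPKM in sham kidneys, and was lower at day 7 (−0.94, limma adjusted p = 0.00748) and at day 3 (−3.32, limma adjusted p = 5.56e-06). With the GC and length trend removed its day 7 value was −0.42 (limma adjusted p = 0.234). Kcnq1, a potassium channel gene, was lower at day 3 (−1.06, limma adjusted p = 0.000677) and stood at −0.47 at day 7 (limma adjusted p = 0.0630). Phlda2 was lower at day 7 (−0.48, limma adjusted p = 0.0273) and at day 3 (−0.59, limma adjusted p = 0.00480), and its day 7 value was 0.13 with the GC and length trend removed; with 1 library left out its limma adjusted p at day 7 reached 0.0888. Cdkn1c itself stood at −0.60 at day 7 and −0.02 at day 3. Kirrel2, the neighbour of Nphs1, was listed at 0 to 0.10 FPKM.

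Markers of other kidney cells were followed in the same groups. Over all tested genes 39.3% were called higher and 20.6% lower at day 3 against sham. The day 3 counts here and in the next paragraph are to be read beside these shares. The summed FPKM of 8 parietal epithelial markers was 67.3 to 119 at day 7, 268 to 350 at day 3 and 65.2 to 112 in sham kidneys. At day 3 5 of 7 tested were called higher, Akap12 (4.78), Cldn1 (2.11), Cd9 (1.73), Cd44 (1.697) and Scin (1.06). Lamb1 (0.41) and Pax8 (0.12) were not called. Much of the day 3 sums came from Akap12, at 103.30 to 141.26 FPKM, and Cd9, at 87.41 to 119.81 FPKM. In sham kidneys these 2 stood at 2.57 to 4.94 and 24.54 to 39.77 FPKM. Which cells supplied this RNA was not tested. For 10 glomerular endothelial markers the sums were 55.5 to 77.5 at day 7, 124 to 184 at day 3 and 67.0 to 87.0 in sham kidneys, and at day 3 2 of 9 tested were higher and 3 lower: Plat stood at 2.70 and Flt1 at 1.196, and Ehd3 at −1.30, Emcn at −0.74 and Tspan7 at −0.55. Plat alone set the day 3 sums apart: the other 9 summed to 48.0 to 64.7 FPKM at day 7, 32.5 to 81.4 FPKM at day 3 and 55.4 to 68.9 FPKM in sham kidneys. Sost, of that list, was at or near 0 throughout, at up to 0.28 FPKM. Mesangial markers (9 genes) summed to 24.2 to 35.3 at day 7, 30.1 to 51.5 at day 3 and 28.2 to 29.4 FPKM in sham kidneys, with 1 of 7 tested higher and 1 lower at day 3, Serpine2 being the higher at 1.85, Agtr1a the lower at −1.14 and Pdgfrb standing at 0.92 with no call.

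Stromal markers (8 genes) summed to 12.7 to 39.8 FPKM at day 7 and 18.0 to 51.7 FPKM at day 3. In sham kidneys the sums were 9.35 to 18.0 FPKM. Without Col3a1 the day 3 sums, 14.2 to 31.2 FPKM, overlapped those of sham, 8.12 to 14.5 FPKM. Of the stromal markers, 2 of 7 tested were higher at day 3, Col3a1 (1.65) and Pdgfra (0.81). Dcn at 0.89, Col1a1 at 0.55, Lum at 0.36, Dpt at −0.24 and Fbln1 at −0.51 were not called. Gli1 stood at up to 0.24 FPKM. Proximal tubule markers (10 genes) summed to 18946 to 28950 FPKM at day 7, 2487 to 16619 FPKM at day 3 and 29492 to 37762 FPKM in sham kidneys, and 10 of 10 were lower at day 3, with Slc34a1 at −4.79 and Kap at −2.02. Kap made up most of each sum, and the other 9 summed to 1351 to 1619 FPKM at day 7, 91.3 to 162 FPKM at day 3 and 990.2 to 2125 FPKM in sham kidneys. With 1 library left out, limma adjusted p at day 3 reached 0.0708 for Emcn, 0.153 for Col3a1 and 0.0539 for Kap. At day 7 against sham no marker of the parietal, mesangial, endothelial or stromal lists was called by limma, and Slc5a12, 1 of the 10 proximal tubule markers, was higher (1.76). Over all tested genes 19.3% were called higher and 10.4% lower in that comparison. The 8 podocyte members summed to 62.0 to 83.8 FPKM at day 7, 48.5 to 85.9 FPKM at day 3 and 72.2 to 96.6 FPKM in sham kidneys, overlapping throughout; without Podxl the sums were 20.7 to 26.4 FPKM at day 7, 23.5 to 30.6 FPKM at day 3 and 26.1 to 39.0 FPKM in sham kidneys. The part of these cell types in the values of Tcf21, Synpo, Cdkn1c and the others was not tested.

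**Figure D5:**
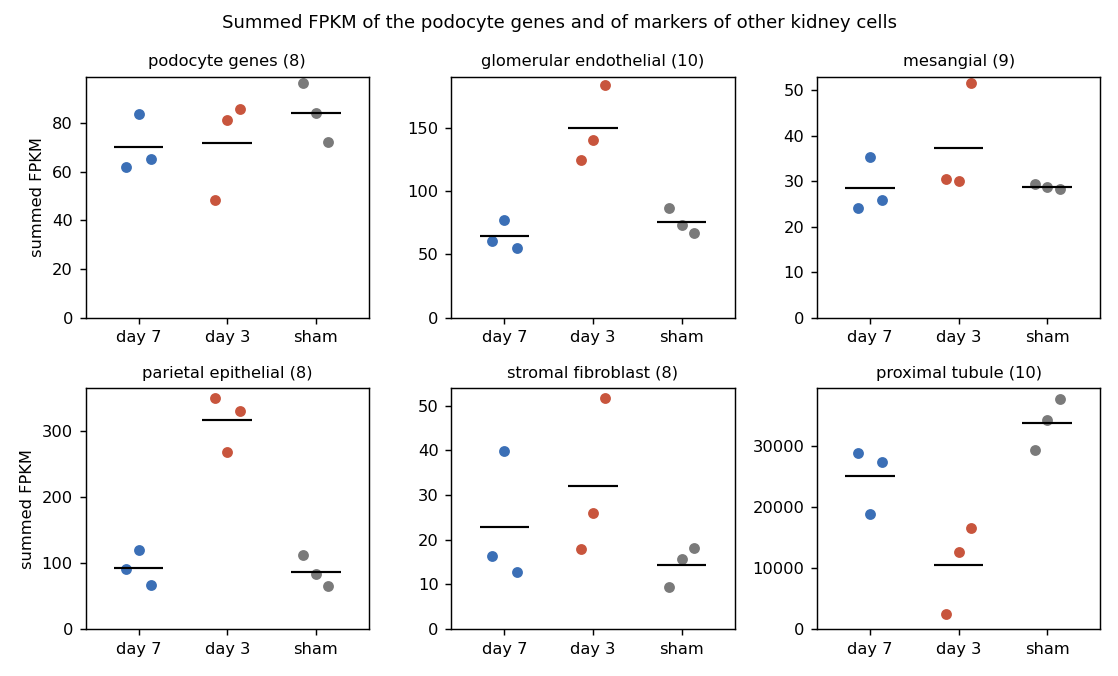
Summed FPKM of the podocyte members and of markers of other kidney cell types in each library (points; lines are group means; y axes differ and start at 0), with groups running from day 7 through day 3 to sham. Proximal tubule markers are at 2487 to 16619 FPKM at day 3, below all other libraries, while the podocyte members overlap between all groups. The count of genes in each list stands in its title.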

How the data were processed

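Kidney RNA of 9 mice (3 biological repeats a group, per the labels' design) was sequenced after preparation with a directional kit, per the labels' protocols. The deposited values are FPKM per gene, which the authors rounded to 2 decimals. The submitters' processing notes name HISAT, StringTie, FastQC 0.10.1 and GRCm38; for settings, annotation release and strand use the entry is: not given in the sources used here. Read counts were not recovered from the rounded FPKM, so depth is unknown and no counting interval is given. Of 55385 IDs, 55144 matched a GENCODE M21 symbol.

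Values were taken as log2(FPKM + 1), which understates changes of low genes. The 13718 genes that reached 1 FPKM in 3 or more libraries were fitted with limma 3.58.1 in R 4.3.3, with group as the only term, eBayes with a mean-variance trend, 3 two-sided contrasts and Benjamini-Hochberg adjustment over all of them within each contrast at 0.05. The code was tested on simulated data. Alternatives were another pseudocount, other filters, median-of-ratios and quantile scaling, GC and length trend removal, 6 libraries a fit, a replicate block and each library left out.

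The members and gene lists were chosen with earlier results of these data known. Named were all members, up to 4 called other podocyte genes each way per contrast whose mean reached 1 FPKM in a group, relatives and neighbours reaching 1 FPKM, the 2 highest markers of each list, and the 5 genes closest in pattern to Nphs1 and to the member mean. Nes, Vegfa and the markers beyond the 2 highest of a list were chosen after their values were seen. Some genes that the rule names are not reported here.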

Additional observations from a re-analysis of the deposited data

Results flagged for a closer look

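The 2 cisplatin groups differed for the following genes, by the day 7 against day 3 contrast of limma (adjusted p under 0.05 over all 13718 tested genes). The times have no sham groups of their own, and the day of the sham collection is not given. A change in the effect of cisplatin therefore cannot be told apart from other differences between the days. Among the members, Tcf21 stood higher at day 7 by 1.06 on the log2(FPKM + 1) scale, and Synpo and Cdkn1c stood at −1.36 and −0.58. The call of Cdkn1c was lost with the GC content and length trend removed, as given above. Among other podocyte genes, Arhgap24 stood at 2.42, Col4a3 at 2.38, Col4a4 at 2.00 and Npnt at 1.06, all higher at day 7 than at day 3. With 1 library left out, the limma adjusted p of Npnt reached 0.0801. Inf2 stood at −2.82, Itga3 at −2.59, Lama5 at −2.05, Agrn at −1.42, Itgb1 at −1.15 and Arhgdia at −0.93, all lower at day 7 than at day 3. Of the relatives, Cdkn1a stood at −5.47 and Magi1 at 0.84. Of the neighbours of Cdkn1c, Slc22a18 stood at 2.38 and Kcnq1 at 0.59. With 1 library left out, the limma adjusted p of Kcnq1 reached 0.0579.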

How the results depend on the processing

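The number of members called at day 3 against sham was 1; it was 4 with median-of-ratios scaling, 3 with quantile normalization and 1 to 2 with a library left out. At day 7 against sham it was 2, against 1 with no filter, 0 with the GC content and length trend removed and 0 to 3 with a library left out. Between day 7 and day 3 it was 3, and 3 with each library left out, 4 with no filter, median-of-ratios scaling or quantile normalization, and 2 with the GC content and length trend removed. Of the other podocyte genes, 11 were called at day 7 against sham, 6 with no filter, 1 with the GC content and length trend removed and 5 to 14 with a library left out; at day 3 the 20 called became 17 to 22, and between day 7 and day 3 the 24 became 20 to 27. The trend removal took the calls over all genes at day 7 to 856, against 4075, and turned Arhgap24 to −0.058 (limma adjusted p = 0.845) and Phlda2 to 0.13 (limma adjusted p = 0.543); the cause was not tested. The replicate block gave 1, 2 and 3 members called at day 3, at day 7 and between them. Of other podocyte genes it gave 21, 8 and 23. Deviations from the group mean correlated at −0.05 to 0.24 for same-numbered libraries and at −0.28 to 0.11 for differently numbered ones. The highest were those of day 7 with sham, 0.24 for library 3 and 0.19 for library 1. The main fit did not treat the libraries as paired. Whether the numbers mark a shared structure was not tested. Depth is unknown, so no detection limit can be given for Magi2 and Wt1, the lowest of the members.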
